A study of Mus musculus with 22 samples.

Results

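The genes described are 10 matrix proteoglycans and glycoproteins, namely lumican (Lum), decorin (Dcn), dermatopontin (Dpt), biglycan (Bgn), fibronectin (Fn1), fibrillin-1 (Fbn1), fibulin-2 (Fbln2), osteonectin (Sparc), thrombospondin-1 (Thbs1) and versican (Vcan). They were chosen by gene symbol, as named matrix genes. Of these 10, 8 were among the 13392 genes measured, while Dcn and Fn1 were not analysed here. Expression was measured on 1 Affymetrix HT MG-430 array per mouse, in 20 mg of liver without tumour from male C57BL/6J mice. The damage model used 1 injection of the carcinogen N-nitrosodiethylamine (DEN), then weekly carbon tetrachloride (CCl4), which kills hepatocytes. The 3 control mice received saline and oil in place of these agents and, by their titles, the drug vehicle. Model mice with established fibrosis were assigned at random to vehicle (n = 9) or to nintedanib at 50 mg/kg (n = 10). Both model groups were treated for 5 weeks. Nintedanib inhibits the receptor kinases for vascular endothelial, platelet-derived and fibroblast growth factors. The ages of the mice are not given in the sources used here.

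Proteoglycans and glycoproteins fill the matrix between collagen fibres and set how fibres assemble and how growth factors are stored. Small leucine-rich proteoglycans such as lumican, decorin and biglycan bind collagen fibrils and regulate their thickness, and dermatopontin binds decorin and collagen. Fibrillin-1 forms microfibrils, fibulin-2 joins elastic fibres and basement membranes, and versican is a large proteoglycan that binds hyaluronan. Osteonectin and thrombospondin-1 are matricellular proteins, which modulate the contact of cells with matrix. In injured liver much of this matrix is made by hepatic stellate cells and portal fibroblasts that have turned into myofibroblasts.

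Mice are named by the number in the sample title, and each is a separate animal. All levels are log2 values of 1 probe set per gene, and a difference is that of 2 group means on this scale, printed with the standard error from limma. Levels of different genes are not compared with each other, since probe sets differ in brightness. Array medians lay between 2.83 and 3.09. Tissue identity was checked on hepatocyte genes, of which 3 of 18 listed were measured. Tat, Pck1 and G6pc, enzymes of amino acid breakdown and glucose production, had group means between 9.30 and 11.4 in the 3 groups. The controls carry title numbers 4, 49 and 50 against 76 to 94 in the model, and the labels give no batch, so collection or batch and the model cannot be told apart. Within the model, mice 76 to 82 and mice 83 to 94 differed in circadian clock genes. Dbp, a clock-driven transcription factor, lay at 5.04 to 6.07 in vehicle mice 76 to 81, at 9.06 to 9.27 in vehicle mice 92 to 94, at 6.19 in nintedanib mouse 82 and at 8.79 to 9.26 in nintedanib mice 83 to 91. Treatment and run of title numbers therefore overlapped strongly, and nintedanib differences are given also within or across these runs. Where the run was taken as a block, the controls were coded with mice 76 to 82, the first run of model mice. The labels do not settle that choice, and blocked differences from control depend on it. Nintedanib arrays 89 and 91 stood apart, as their correlation with the remaining arrays had a median of 0.950 and 0.948. In whole liver, fewer cells of a type and less RNA per cell cannot be told apart.

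Of the 5 genes that rose in the damaged liver, 4 had an entry among RefSeq promoter sequences of the GRCm38.p6 build, and these are shown so that the start regions of genes that moved together can be compared. Each runs 5′ to 3′ on the gene's strand from 250 bases before the annotated start to 50 bases after it, with matches to the searched motifs in capitals. The windows are chr1:164796413-164796712 on the plus strand for Dpt, chrX:73483351-73483650 on the plus strand for Bgn, chr2:125506389-125506688 on the minus strand for Fbn1 and chr11:55420031-55420330 on the minus strand for Sparc.
Dpt: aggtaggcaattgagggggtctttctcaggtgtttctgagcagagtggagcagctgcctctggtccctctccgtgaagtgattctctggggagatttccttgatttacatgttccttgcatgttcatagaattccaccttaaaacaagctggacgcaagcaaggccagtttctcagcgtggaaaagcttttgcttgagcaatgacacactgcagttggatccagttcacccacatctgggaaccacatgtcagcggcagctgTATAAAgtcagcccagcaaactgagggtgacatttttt
Bgn: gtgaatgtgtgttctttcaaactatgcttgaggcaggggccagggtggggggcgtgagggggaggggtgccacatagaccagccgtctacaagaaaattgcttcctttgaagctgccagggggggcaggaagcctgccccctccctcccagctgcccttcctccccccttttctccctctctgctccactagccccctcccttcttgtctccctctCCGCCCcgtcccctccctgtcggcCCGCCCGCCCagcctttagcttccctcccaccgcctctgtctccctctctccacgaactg
Fbn1: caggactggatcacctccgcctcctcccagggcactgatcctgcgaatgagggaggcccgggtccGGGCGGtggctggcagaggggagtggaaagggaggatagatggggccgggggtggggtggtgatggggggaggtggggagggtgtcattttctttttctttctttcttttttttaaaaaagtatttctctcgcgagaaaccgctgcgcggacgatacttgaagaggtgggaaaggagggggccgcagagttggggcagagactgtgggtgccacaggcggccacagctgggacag
Sparc: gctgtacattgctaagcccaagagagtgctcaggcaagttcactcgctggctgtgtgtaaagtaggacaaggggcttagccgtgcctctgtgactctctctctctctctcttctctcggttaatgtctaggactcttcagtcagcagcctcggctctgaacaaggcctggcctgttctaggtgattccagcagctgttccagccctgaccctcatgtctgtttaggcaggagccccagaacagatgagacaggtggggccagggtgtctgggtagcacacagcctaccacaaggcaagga
The motifs searched on both strands were the TATA box (TATAAA), the GC box (GGGCGG), the CCAAT box (CCAAT), an AP-1 site (TGANTCA), a TEAD site (GGAATG) and a palindromic SMAD site (GTCTAGAC). In the windows shown, no match to one motif overlapped a match to another, although copies of the GC box overlapped in Bgn. The Dpt window held a single TATAAA at position 13, counting the annotated start as 1, and 13.6% of 32851 promoters held that motif. In the Bgn window the GC box appeared 3 times on the minus strand, at positions -34, -10 and -6, the last pair overlapping. Fbn1 held 1 GC box at position -185, and Sparc held no match to any of the 6 motifs. GC boxes were present in 35.7% of all promoters, CCAAT boxes in 37.4%, AP-1 sites in 7.81%, TEAD sites in 14.7% and the SMAD palindrome in 0.213%. The GC content was 48.7% for Dpt, 63.7% for Bgn, 60.3% for Fbn1 and 55.3% for Sparc, against a median of 52.7% over all promoters. Of the motifs searched, none was shared by all 4 promoters, and the GC box was shared by Bgn and Fbn1. Lum and Thbs1 had no entry.

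The first comparison, of the vehicle group with the controls, concerns the effect of DEN and CCl4 on these genes. Lumican and dermatopontin rose the most, 2.91-fold and 3.61-fold, while fibrillin-1, osteonectin and biglycan rose by smaller factors of 1.85, 1.67 and 1.39. For fibulin-2, thrombospondin-1 and versican the differences from control did not pass the test. Thus 5 of the 8 measured members rose and 0 fell at an adjusted p under 0.05 in limma, where 2.52% of all 13392 genes were called and 1.55% were called higher. All 9 vehicle mice lay above the highest control for each of these 5 genes, a separation upward that 2.49% of all genes had. The median difference over the 8 members was 0.60, against -0.02 over all genes.

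**Figure D1:**
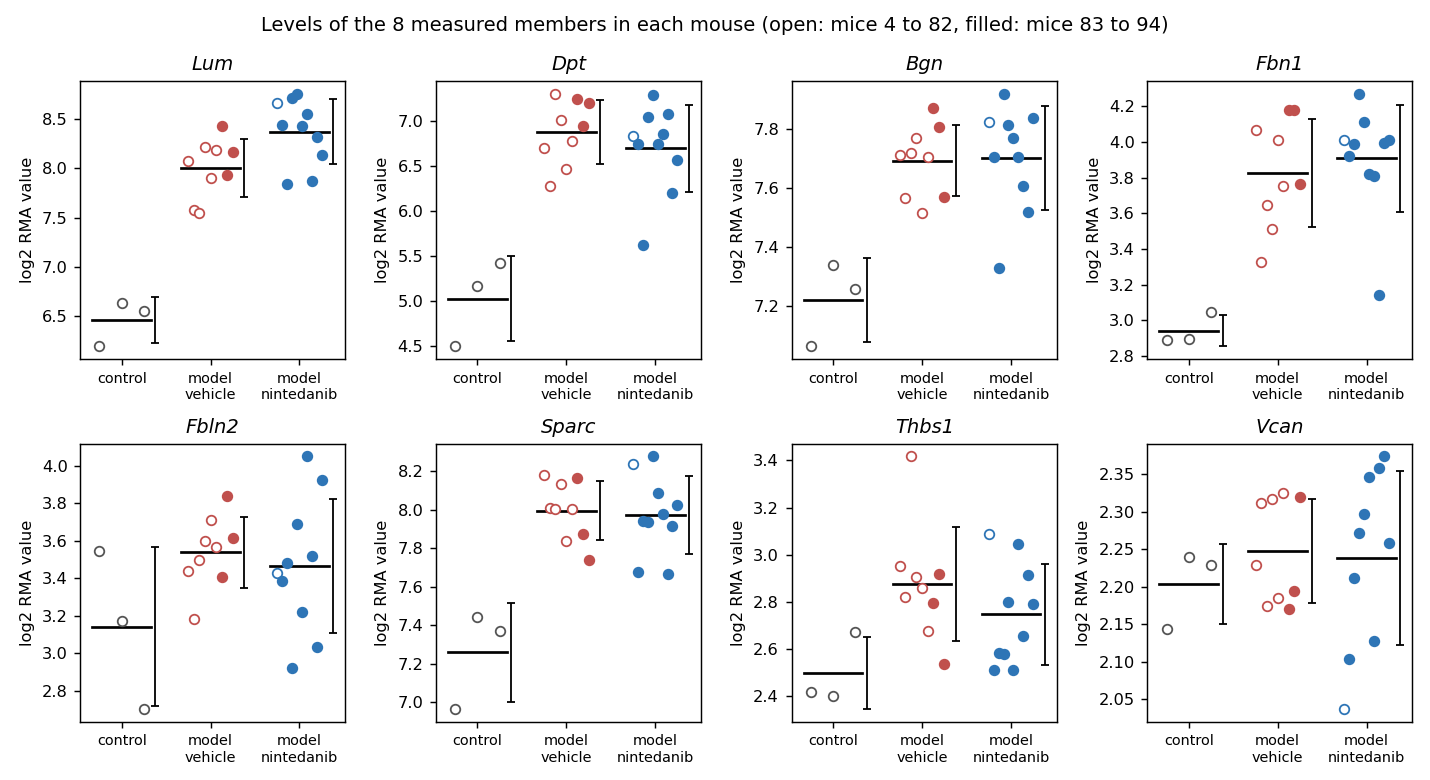
Log2 level of each measured member (y axis) in every mouse, by group (x axis); horizontal lines are group means and bars are the SD, open points are mice 4 to 82 and filled points mice 83 to 94. For Lum, Dpt, Bgn, Fbn1 and Sparc the 9 vehicle mice sit above all 3 controls, and nintedanib mice cover much the same range as vehicle mice, with Lum reaching 8.76 under nintedanib.

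Among the small leucine-rich proteoglycans, Lum stood at 6.19, 6.63 and 6.56 in control mice 4, 49 and 50. In vehicle-treated model mice it ranged from 7.55 through a median of 8.07 to 8.43. The lowest model mouse thus lay 0.92 above the highest control, the widest gap of the 8 members. The group means were 6.46 ± 0.23 (SD, n = 3) and 8.002 ± 0.29 (SD, n = 9), a difference of 1.54 ± 0.19 (limma adjusted p = 2.47e-05). Bgn, which encodes a relative of lumican that can also act as a signal of tissue injury when set free, was at 7.06, 7.34 and 7.26 in the controls. Its vehicle values ran from 7.51 through 7.71 to 7.87, all above the controls but only 0.17 above the highest of them. The rise of 0.47 ± 0.11 passed with a limma adjusted p of 0.0214. It no longer passed without control mouse 4 (0.39, limma adjusted p = 0.186), without control mouse 50 (0.49, limma adjusted p = 0.0849) or with vehicle mice 76 to 81 alone (0.44, limma adjusted p = 0.0659).

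Dermatopontin had the largest rise of the members. Control mice 4, 49 and 50 had Dpt levels of 4.49, 5.17 and 5.42, and the vehicle mice ranged from 6.27 through 6.94 to 7.30. The groups were separated by 0.86, and control mouse 4 lay well below the other controls. Means of 5.03 ± 0.48 (SD, n = 3) and 6.88 ± 0.36 (SD, n = 9) gave a difference of 1.85 ± 0.26 (limma adjusted p = 0.000103).

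The 2 genes of microfibrils and elastic fibres behaved differently in the test. Fbn1, the main component of microfibrils, was at 2.89, 2.896 and 3.05 in the controls and at 3.33, 3.77 and 4.18 as lowest, median and highest value in vehicle mice. Control values of Fbn1 were close to the array medians and close to each other, and the model mice were spread more widely above them. The difference was 0.88 ± 0.18 (limma adjusted p = 0.00599), and without control mouse 4 it was 0.86 with an adjusted p of 0.0524. Fbln2, whose product bridges elastic fibres and basement membranes, had 3.55, 3.17 and 2.70 in controls 4, 49 and 50, a wide spread for 3 mice. Vehicle mice ranged from 3.18 through 3.56 to 3.84, and 5 of the 9 lay above the highest control. The Fbln2 difference of 0.40 ± 0.19 did not pass (limma adjusted p = 0.360), with a 95% interval from 0.00 to 0.80.

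Osteonectin (Sparc), a collagen-binding matricellular protein, was measured at 6.96, 7.44 and 7.37 in the controls. Vehicle mice ranged from 7.74 through 8.004 to 8.18, with no overlap. The mean rose from 7.26 ± 0.26 (SD, n = 3) to 7.99 ± 0.15 (SD, n = 9), a difference of 0.74 ± 0.13 (limma adjusted p = 0.00196). Thbs1, which can activate latent transforming growth factor beta, had control values of 2.42, 2.40 and 2.67. Its vehicle values were 2.54, 2.86 and 3.42 as lowest, median and highest, and 8 of 9 lay above the highest control. The difference of 0.38 ± 0.15 did not pass (limma adjusted p = 0.208). All Thbs1 control values lay below the lowest array median of 2.83, in a dim range where differences are compressed. Vcan was at 2.14, 2.24 and 2.23 in the controls and between 2.17 and 2.32 in vehicle mice, and 4 of the 9 lay above the highest control. Its difference was 0.04 ± 0.09 (limma adjusted p = 0.903). Every Vcan value in the series was below the lowest array median, a range where the summarised values compress differences, and the 95% interval of the difference ran from -0.14 to 0.23.

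**Figure D2:**
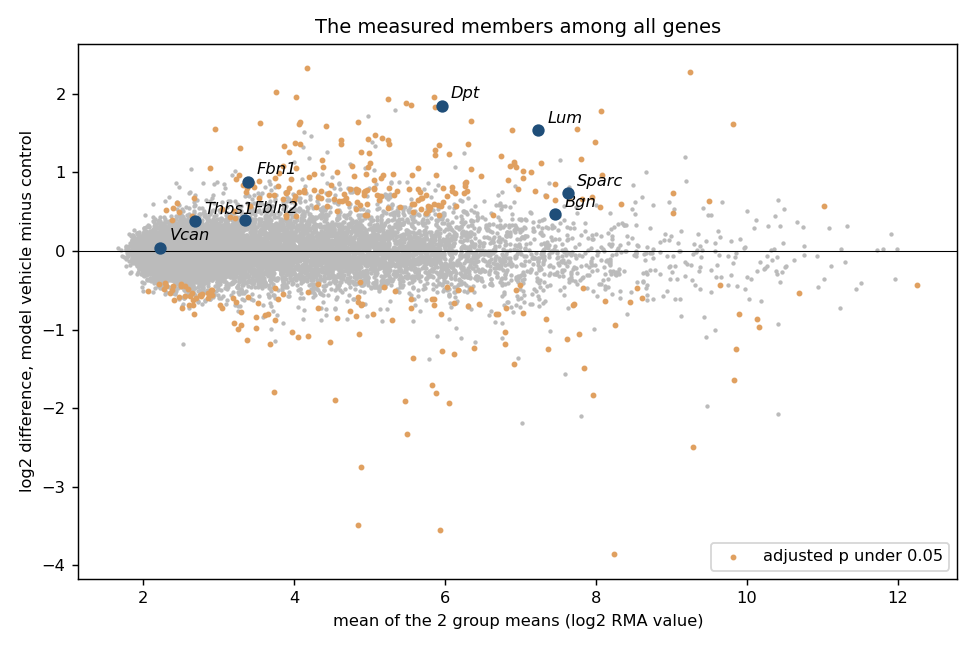
Difference of model vehicle from control (y axis, log2) against the mean of both group means (x axis, log2) for all 13392 genes, with genes at an adjusted p under 0.05 in orange and the 8 measured members in blue. Dpt and Lum, at 1.85 and 1.54, lie near the upper edge of the cloud, and Vcan lies at 0.04 at its dim end.

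Genes that work beside the members were taken from lists. Of 8 fibrillar collagen genes, the chains of the fibrils that lumican and biglycan bind, 3 rose and 0 fell, with a median difference of 0.60. These were Col1a2 (1.96 ± 0.19, limma adjusted p = 4.99e-07), Col3a1 (1.37 ± 0.18) and Col5a2 (1.06 ± 0.17). Other matrix glycoproteins had 4 of 59 measured genes higher and 0 lower, with a median of 0.21. Sparcl1, a relative of Sparc, was higher by 1.23 ± 0.25 (limma adjusted p = 0.00614). The other 3 were the integrin ligand Mfge8 (0.68 ± 0.16), periostin (Postn, 0.76 ± 0.18) and the basement membrane linker nidogen-1 (Nid1, 0.80 ± 0.19). Without control mouse 4 none of the 4 passed, with adjusted p-values from 0.0518 for Postn to 0.261 for Mfge8, and Postn also failed without control 49 or 50.

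Among 31 other proteoglycans, 0 passed in limma in either direction, 3 had an unadjusted p under 0.05 and the median was 0.05. Over all genes, 1868 of 13392 had an unadjusted p under 0.05 in this comparison, which is the background for the counts below. Several of the 31, such as Kera (2.04) and Epyc (2.13) in the controls, lay below the lowest array median of 2.83. In that range the summarised values compress differences. The other proteoglycan with the smallest p was the heparan sulfate proteoglycan glypican-1 (Gpc1), at 1.03 ± 0.29 (limma adjusted p = 0.0512). Enzymes that build glycosaminoglycan chains, the sugar chains that proteoglycans carry, likewise had 0 of 31 called in limma, 2 at an unadjusted p under 0.05 and a median of -0.05. Among 20 turnover genes, which trim or degrade those chains, 2 were higher and 1 was lower. Sulf2, an extracellular heparan sulfate sulfatase, was higher by 0.97 ± 0.19 (limma adjusted p = 0.00298), and heparanase (Hpse) by 0.71 ± 0.15 (limma adjusted p = 0.00944). Hyal1, a hyaluronidase, fell by 0.67 with a standard error of 0.14 (limma adjusted p = 0.00824). Hpse lost its call without control 49 (adjusted p = 0.0699) and Hyal1 without control 4 (adjusted p = 0.102). Of 18 measured cell surface receptors for the members 0 passed in limma and 6 had an unadjusted p under 0.05, with a median of 0.11. The integrin chain Itga8 (0.87 ± 0.26, limma adjusted p = 0.0716) and the hyaluronan receptor Cd44 (0.71 ± 0.22, limma adjusted p = 0.0871) had the smallest p-values of them. Of these genes Gpc1 passed in 4, Itga8 in 3 and Cd44 in 2 of 10 other settings.

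**Figure D3:**
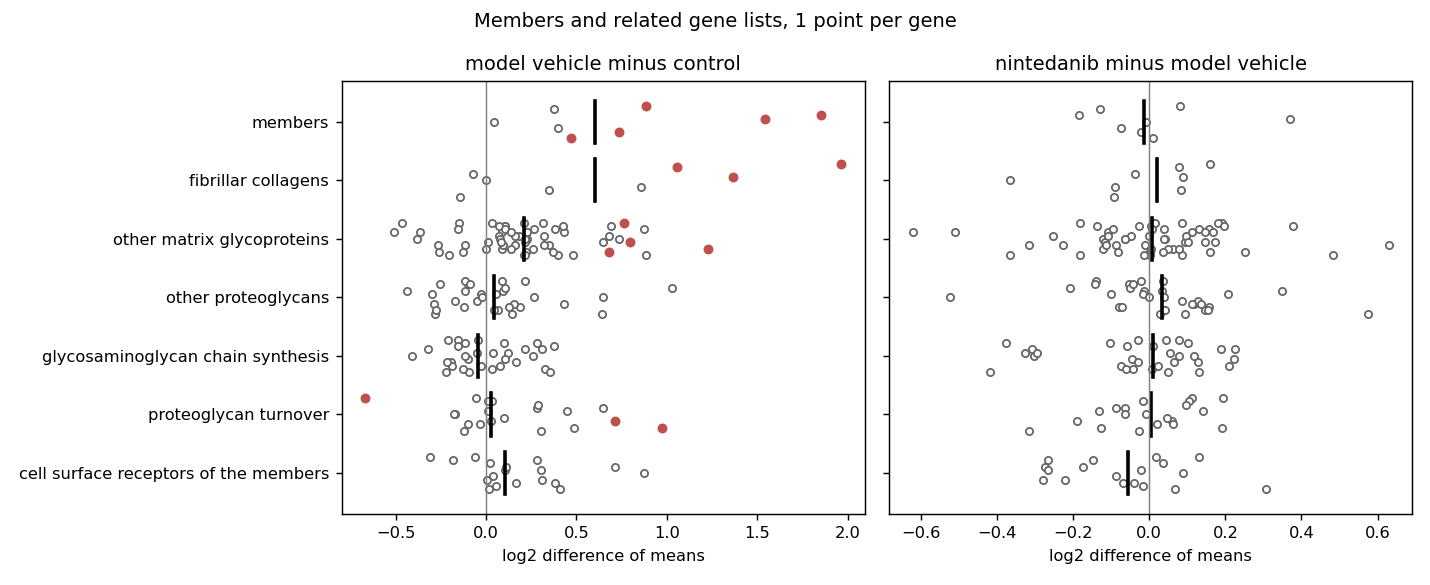
Log2 difference of each measured gene (points) in model vehicle minus control (left) and nintedanib minus model vehicle (right), by gene list, with black bars at the list medians and filled points at an adjusted p under 0.05. The members and the fibrillar collagens both have medians of 0.60 on the left, against 0.05 for other proteoglycans and -0.05 for chain synthesis, and no point is filled on the right. Several other proteoglycans lay in a dim range where the summarised values compress differences.

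Marker genes of cell types that could hold or accompany these transcripts moved as follows in the same comparison. Of 13 measured stellate cell markers 2 rose, the globin Cygb (0.65) and the pericyte gene Rgs5 (0.59), and the mean level of the list was 4.40 to 4.53 in controls and 4.46 to 4.79 in vehicle mice. Of the 13 markers 8 differed upward and 5 downward, and the receptor gene Ngfr had the lowest difference (-0.43, limma adjusted p = 0.135). With only these 2 groups in the fit, or without nintedanib mice 89 and 91, 1 of the markers was called lower. Both upward calls were lost without control 49 or 50, and that of Cygb also without control 4, without vehicle mouse 76 and without vehicle mouse 93. Portal fibroblast markers had 0 of 10 called in limma and 2 at an unadjusted p under 0.05, where 1868 of all 13392 genes had such a p. Their list means were 3.41 to 3.49 in controls and 3.42 to 3.70 in vehicle mice. Myofibroblast markers had 2 of 10 higher, Postn and the cross-linking oxidase Loxl1 (0.50, limma adjusted p = 0.0421, a call lost without control 4 or 50, vehicle mouse 76, 77, 78, 79, 92 or 94, or nintedanib mouse 86 or 87). By contrast, smooth muscle actin (Acta2) stood at 4.32 ± 0.19 (SD, n = 3) and 4.66 ± 0.29 (SD, n = 9), which did not pass. The myofibroblast list means were 3.47 to 3.66 in controls and 3.59 to 4.13 in vehicle mice. Mesothelial markers had 0 of 10 called in limma, 0 at an unadjusted p under 0.05 and a median of 0.00. Monocyte-derived macrophage markers rose in 5 of 11 cases, led by Gpnmb, which marks macrophages at sites of injury (2.33), and their list means rose from 4.29 to 4.54 in controls to 5.18 to 5.89 in vehicle mice without overlap. Endothelial markers had 2 of 8 higher (Pecam1 and Lyve1), with list means of 4.45 to 4.62 and 4.88 to 5.26. Lyve1 lost its call without control 4 or 50, and Pecam1 (limma adjusted p = 0.0438) without either of these, without any 1 of vehicle mice 76, 77, 78, 79, 80, 92 and 94 and without nintedanib mouse 90. Platelet markers, listed because platelets hold Thbs1 and Sparc protein, had 1 of 10 higher, the chemokine Pf4 (0.94, and 0.87 with a limma adjusted p of 0.0830 without control 4), and overlapping list means of 2.87 to 3.02 and 2.89 to 3.31. The part of these cell types in the members' differences was not tested.

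The second comparison, between the model groups, concerns the effect of the kinase inhibitor on damaged liver. None of the 8 members passed in either direction (limma adjusted p from 0.245 to 0.987), where 0.687% of all genes were called. At an unadjusted p under 0.05 in limma there was 1 member, Lum, among 1417 genes. The median difference over the members was -0.01, against 0.01 over all genes. Both groups carried the 5-week treatment on top of the model, and every member's nintedanib values overlapped its vehicle values, where 0.0672% of all genes had no overlap.

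Lum under nintedanib ranged from 7.84 through 8.43 to 8.76, and 5 of 10 mice lay above the highest vehicle mouse. Its mean of 8.37 ± 0.33 (SD, n = 10) was 0.37 ± 0.13 above vehicle (unadjusted p = 0.0101, limma adjusted p = 0.245, 95% interval 0.10 to 0.64). With the run of title numbers as a block the difference was 0.33 (limma adjusted p = 0.989). Within mice 83 to 94 it was 0.16, with a 95% interval from -0.23 to 0.56. In the other run, the single nintedanib mouse 82 was 0.75 ± 0.31 above vehicle mice 76 to 81 (95% interval 0.11 to 1.38, limma adjusted p = 0.999), a value that rests on 1 treated mouse. The Lum difference was thus positive in both runs, smaller than the pooled value in one and larger in the other.

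Dpt under nintedanib ranged from 5.62 through 6.79 to 7.28, and mice 84 and 90 lay below the lowest vehicle mouse. The Dpt difference was -0.18 ± 0.18 (95% interval -0.56 to 0.19) over all mice and -0.44 (95% interval -0.99 to 0.10) within mice 83 to 94. Lum and Dpt, the members with the largest rises in the model, thus had differences of opposite sign under nintedanib, neither of which passed. Bgn ranged from 7.33 to 7.92 and Sparc from 7.66 to 8.28, close to their vehicle ranges. Their differences of 0.01 ± 0.08 and -0.02 ± 0.09 had 95% intervals of -0.15 to 0.17 and -0.21 to 0.17, the narrowest of the members that rose. Fbn1 differed by 0.08 ± 0.13 (95% interval -0.18 to 0.34), and 9 of its 10 nintedanib values lay between 3.81 and 4.27. Among the members that did not rise in the model, Fbln2 differed by -0.07 ± 0.13, Thbs1 by -0.13 ± 0.10 and Vcan by -0.01 ± 0.06. The differences of Dpt, Bgn, Fbn1, Sparc, Thbs1 and Vcan changed sign under at least 1 other setting or run. Mouse 82 differed from vehicle mice 76 to 81 by 0.07 in Dpt, 0.21 in Sparc, 0.15 in Thbs1 and -0.22 in Vcan. The values of Sparc and Thbs1 lay above the upper ends of the intervals over all mice (0.17 and 0.08). That of Vcan lay below the lower end (-0.14). Each of these differences rests on 1 treated mouse, and its own 95% interval was wide and included 0.

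**Figure D4:**
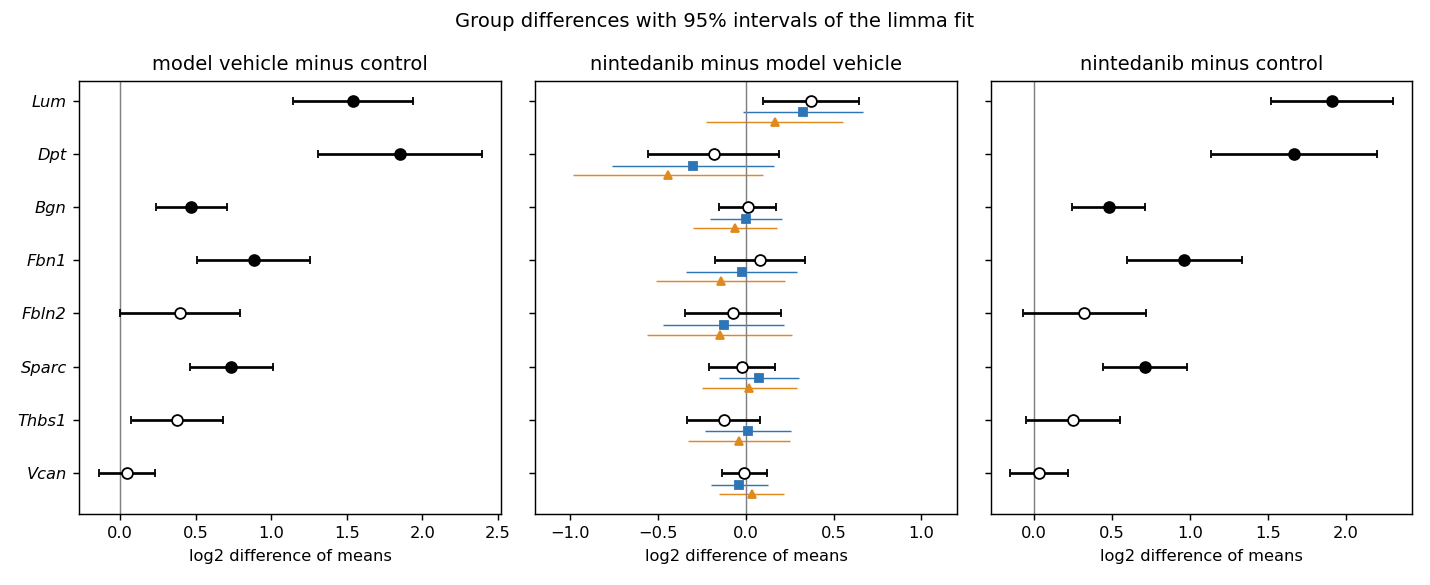
Log2 difference of group means (x axis) for each measured member (y axis) in 3 comparisons; bars are 95% intervals of the limma fit and filled points have an adjusted p under 0.05. In the middle panel circles are all mice, blue squares take the run as a block and orange triangles compare nintedanib mice 83 to 91 with vehicle mice 92 to 94, where Lum moves from 0.37 to 0.33 and 0.16.

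Of 167 measured genes of the collagen, glycoprotein, proteoglycan, chain synthesis, turnover and receptor lists, 0 passed in limma between nintedanib and vehicle. An unadjusted p under 0.05 was found for 22 of them, and for 1417 of all 13392 genes. The list medians lay between -0.06 and 0.03. The smallest unadjusted p-values belonged to Col5a3, a minor fibrillar collagen chain (-0.36 ± 0.10, limma adjusted p = 0.101), and Papss1, which makes the sulfate donor for glycosaminoglycan chains (-0.38 ± 0.11, limma adjusted p = 0.101). Ccn2, a matricellular gene induced by transforming growth factor beta and by YAP, differed by 0.63 ± 0.18 (limma adjusted p = 0.119). Its relative Ccn1 differed the other way, by -0.62 ± 0.22 (limma adjusted p = 0.225). Ccn2 passed without nintedanib mouse 91 (0.74, limma adjusted p = 0.0299), without mice 89 and 91 (0.80, limma adjusted p = 0.0322) and with array weights (0.75, limma adjusted p = 0.0198), and with the run as a block it was 0.71 (limma adjusted p = 0.572). Papss1 and the basement membrane gene Nid2 passed only without nintedanib mouse 82 among the settings tried, at -0.41 (limma adjusted p = 0.0465) and -0.44 (limma adjusted p = 0.0429).

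The last comparison, of nintedanib-treated mice with controls, asks whether the members were above healthy liver under treatment. It shares its controls with the first comparison, so its values are given beside those rather than as separate evidence. The same 5 genes were higher, of 8 measured, and 0 were lower, where 5.85% of all genes were called and 2.87% were called higher. Lum was 1.91 ± 0.19 above control (limma adjusted p = 2.90e-07) and Dpt 1.67 ± 0.26 (limma adjusted p = 0.000182). Fbn1 was higher by 0.96 ± 0.18 (limma adjusted p = 0.00132), Sparc by 0.72 ± 0.13 (limma adjusted p = 0.00113) and Bgn by 0.48 ± 0.11 (limma adjusted p = 0.00963). All 10 nintedanib mice lay above the highest control for Lum, Dpt, Fbn1 and Sparc, and 9 of 10 did for Bgn, where mouse 84 fell 0.01 short. Such an upward separation was seen in 2.47% of all genes. Fbln2 (0.32 ± 0.19), Thbs1 (0.25 ± 0.15) and Vcan (0.03 ± 0.09) did not pass. With the run as a block, Bgn (0.46, limma adjusted p = 0.125) and Fbn1 (0.80, limma adjusted p = 0.0772) no longer passed. In that fit 3 members passed, where 1.06% of all genes were called higher. These blocked values rest on coding the controls with the first run of model mice, which neither the labels nor the clock genes settle. Without control 4 Bgn did not pass (0.40, limma adjusted p = 0.105).

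The runs of title numbers were also compared within vehicle mice. Between vehicle mice 92 to 94 and vehicle mice 76 to 81, 1.11% of all genes were called and 0 of the 8 members were (limma adjusted p from 0.780 to 0.989), with 0 members at an unadjusted p under 0.05. Dpt was higher in mice 92 to 94 by 0.37 ± 0.28, Fbn1 by 0.32 ± 0.19 and Lum by 0.26 ± 0.20, all with 95% intervals that include 0. Against the controls, vehicle mice 76 to 81 alone had 4 of 8 members higher and 0 lower, where 2.37% of all genes were called in either direction. These were Lum (1.46 ± 0.20), Dpt (1.73 ± 0.28), Fbn1 (0.78 ± 0.19) and Sparc (0.77 ± 0.14). Dbp was at 5.13 to 6.18 in the controls, a range that overlapped that of mice 76 to 81, but the mean over the 12 measured clock genes was 5.04 to 5.07 in the controls and 4.71 to 4.90 in mice 76 to 81, without overlap. The part of clock state in the members' differences was not tested.

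How the members varied from mouse to mouse was examined inside single runs, over 28 pairs in each. In nintedanib mice 83 to 91 (n = 9) no pair passed after adjustment over the 28, and 2 had an unadjusted exact permutation p under 0.05. Lum and Bgn correlated with Pearson r = 0.71 (exact permutation p = 0.0318, adjusted p = 0.445) and Spearman rho = 0.63 (exact permutation p = 0.0760). Dpt and Bgn had r = 0.79 (exact permutation p = 0.0127, adjusted p = 0.356) and rho = 0.50 (exact permutation p = 0.178). For Lum and Dpt r was 0.60 (exact permutation p = 0.0816, adjusted p = 0.647) and rho was 0.62 (exact permutation p = 0.0857). Mouse 84 had the lowest value of the nintedanib mice for all 3 genes, at 7.84 for Lum, 5.62 for Dpt and 7.33 for Bgn. Without the 2 mice farthest from the median of the first gene, r was 0.37 for Lum and Bgn, 0.01 for Dpt and Bgn and 0.83 for Lum and Dpt. The first 2 values were thus lower without those mice, but leaving them out also narrows the range of the first gene.

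Leaving out arrays 89 and 91, which stood apart from the rest, raised these 3 correlations. In the remaining 7 mice Lum and Dpt had r = 0.97 and rho = 0.96 (exact permutation adjusted p for r = 0.0111), Lum and Bgn had r = 0.94 and rho = 0.86 (exact permutation adjusted p for r = 0.0361), and Dpt and Bgn had r = 0.95 and rho = 0.93 (exact permutation adjusted p for r = 0.0407). Without the 2 farthest mice as well, r was 0.88, 0.88 and 0.60 over 5 mice. In vehicle mice 76 to 81 (n = 6) no pair passed or had an unadjusted exact permutation p under 0.05. There r was 0.08 for Lum and Dpt (exact permutation p = 0.858), 0.45 for Lum and Bgn (exact permutation p = 0.364) and 0.79 for Dpt and Bgn (exact permutation p = 0.0681). Vehicle mouse 78 combined the lowest Lum of the group with the highest Dpt. Over all 28 pairs the median r was 0.12 in the nintedanib mice and 0.17 in the vehicle mice. These medians include pairs with Thbs1 and Vcan, whose means of 2.71 and 2.26 in these nintedanib mice lay in the dim range. Differences are compressed there, so the medians do not settle how strongly the members varied together. Among pairs of Lum, Dpt, Bgn, Fbn1 and Sparc, r ran from -0.16 to 0.79 in the nintedanib mice and from -0.09 to 0.79 in the vehicle mice.

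**Figure D5:**
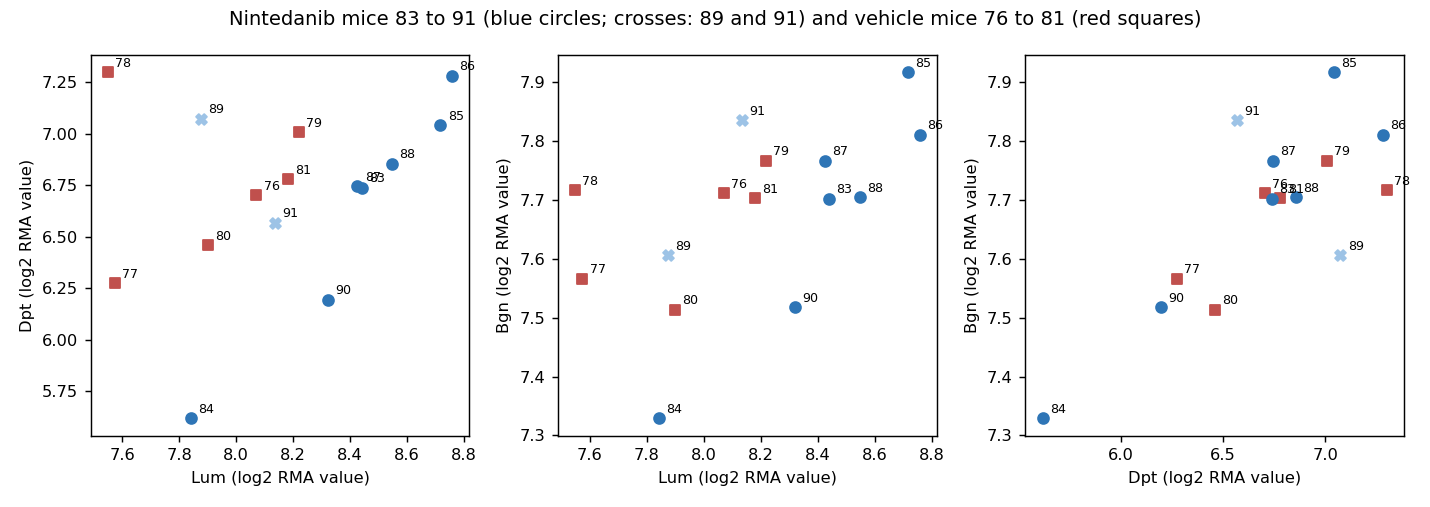
Log2 levels of Lum, Dpt and Bgn plotted against each other, 1 point per mouse labelled with its number, for nintedanib mice 83 to 91 (blue, crosses for arrays 89 and 91) and vehicle mice 76 to 81 (red squares). Without arrays 89 and 91 the blue circles follow a line with mouse 84 at its lower end (r = 0.97, 0.94 and 0.95 over 7 mice). Over all 9 nintedanib mice shown r was 0.60, 0.71 and 0.79, and no pair passed after adjustment. Vehicle mouse 78 joins a low Lum to a high Dpt.

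The genes whose mouse-to-mouse variation was most like that of each member were looked up among the named genes outside the members. Other members were left out of this search, so closest below means closest outside the members. The correlations were taken over the residuals of the 22 arrays from 5 means, those of the controls and of each treatment within each run. These correlations are a description only, as all genes share the same arrays, 89 and 91 among them. The gene most like Lum was Col1a2, a chain of type I collagen (r = 0.80), followed by Aard (r = 0.80) and Itga8, the integrin alpha 8 chain (r = 0.78). The genes closest to Sparc were Cd93, a receptor of endothelial cells (r = 0.85), and the collagen chains Col3a1 (r = 0.79) and Col4a1 (r = 0.78). Bgn and Dpt both had gelsolin (Gsn), which severs actin filaments, as the closest gene (r = 0.84 and 0.77). For Bgn it was followed by Mamdc2 (r = 0.80) and the type VI collagen chain Col6a3 (r = 0.77), and for Dpt by the metalloproteinase inhibitor Timp2 (r = 0.77) and Fam3a (r = 0.76). The closest gene to Fbn1 was calumenin (Calu, r = 0.82), a calcium-binding protein of the secretory pathway, followed by Phrf1 (r = 0.79) and Zbtb11 (r = 0.77). Fbln2, Thbs1 and Vcan, whose differences from control did not pass, had Mei1 (r = 0.78), Ube2d2b (r = 0.76) and Myh7b (r = 0.71) as their closest genes.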

How the data were processed

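Total RNA from 22 livers was hybridised to 22 arrays, per the labels' protocols. Per the series' design text, the authors deposited log2 values from the robust multiarray average, with 1 custom probe set per Entrez gene. That method forces the same distribution of probe intensities on every array before they are summarised per gene, which hides a shift of the whole transcriptome. It also compresses differences near background. The values used carry no detection calls, and the number of arrays, above all 3 controls, limits the precision. RefSeq's GRCm38.p6 annotation, joined on Entrez ID, named 13242 of 13392 genes. No array or gene was left out.

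One limma model (version 3.58.1, R 4.3.3) with 3 group means and 19 residual degrees of freedom covered the 22 arrays; moderated p-values were 2-sided and adjusted over all genes by Benjamini-Hochberg, and the threshold was 0.05. A second fit used 5 means, splitting treatments by run of title numbers. Correlations used exact permutation, 2-sided, adjusted over 28 pairs. The code was tested on simulated data.

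The members, gene lists, runs and the pair of arrays were chosen with earlier results of these data known, and lists are described by counts and medians only. Named beside the members are, per list, up to 4 genes with the smallest p in each of the first 2 comparisons, all other named genes being marker or clock examples, or the closest genes by correlation. Acta2, Tat, Pck1, G6pc and the markers named among cell types were not all set by that rule, and their choice from the lists came after their values were seen. Alternatives were array weights, trended and robust variance, centring by array median, quantile normalization a second time, dropping the dimmest 25% of genes, fits of only 2 groups, a threshold of 0.01, the run as a block, leaving out mice 89 and 91 or single runs, and leaving out each mouse.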

Additional observations from a re-analysis of the deposited data

Results flagged for a closer look

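Among 16 combinations of a member and a model group, 2 had a mouse far from the others of its group, where chance alone would mark about 1 in 20. Fbn1 in nintedanib mouse 89 was at 3.14, the lowest of the 10, while the next lowest mouse was at 3.81. Array 89 is 1 of the pair that stood apart in its correlation with the other arrays, and its part in this value was not tested. Without mice 89 and 91 Fbn1 was 0.16 above vehicle, against 0.08 with them, and neither passed in limma. Thbs1 in vehicle mouse 78 was at 3.42, the highest of the 9, while the next highest was at 2.95. The same mouse had the lowest Lum and the highest Dpt of the vehicle group.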

How the results depend on the processing

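In vehicle against control, Lum, Dpt and Sparc passed in all 10 other settings and in all 22 fits that left out a mouse, Fbn1 in 10 and 21, and Bgn in 8 and 20; Fbln2, Thbs1 and Vcan passed in none. No member passed between nintedanib and vehicle in any of them. Counts of all genes moved more. At a threshold of 0.01, 98 genes were higher and 57 lower in vehicle against control, 17 and 4 in nintedanib against vehicle, and 189 and 163 in nintedanib against control. With the run as a block, nintedanib against vehicle gave 6 higher and 0 lower (663 at an unadjusted p under 0.05), and nintedanib against control 142 and 102, with 3 members. Within mice 83 to 94 limma called 0 higher and 0 lower (695 unadjusted). Without mice 89 and 91, 206 genes were lower in vehicle against control, 22 were lower in nintedanib against vehicle, and 3 correlated pairs passed in place of 0. Leaving out 1 mouse gave 88 to 249 higher, 58 to 169 lower and 3 to 5 members in vehicle against control, with the lowest gene counts without control 50 (88 and 58) and control 4 (94 and 64), and 3 members without control 4. It gave 30 to 117 higher, 19 to 113 lower and 0 members in nintedanib against vehicle; the counts in 1 or both directions moved by over 1.5 times downward without vehicle mouse 76 (30 and 19), 77, 78, 79, 80 or 81 or nintedanib mouse 84 or 85 and upward without vehicle mouse 93 or 94 or nintedanib mouse 82 (117 and 113). It gave 199 to 419 higher, 168 to 436 lower and 4 to 5 members in nintedanib against control, with 199 and 180 genes without control 4 and 211 and 168 without control 50. Differences between nintedanib and vehicle that changed sign under these settings were those of Bgn (-0.0178 with median centring, -0.0002 with the block, -0.0611 within mice 83 to 94), Fbn1 (-0.0237 with the block, -0.144 within mice 83 to 94), Sparc (0.0071 with array weights, 0.0121 without mice 89 and 91, 0.0719 with the block, 0.0192 within mice 83 to 94), Thbs1 (0.0117 with the block) and Vcan (0.0331 within mice 83 to 94). Leaving out 1 mouse gave -0.0143 to 0.0511 for Bgn, -0.0538 to 0.0143 for Sparc and -0.0237 to 0.0138 for Vcan. In nintedanib against control Vcan was -0.01 with the block. All blocked results against control rest on coding the controls with the first run of model mice. The cause of these changes was not tested, except that a stricter threshold calls fewer genes and fewer mice give less precision by construction. No paired analysis was possible because each title number belongs to 1 mouse and the groups share none.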
